A study of Mus musculus with 25 samples.

Results

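The genes described here encode the enzymes that build cholesterol, fatty acids and triglycerides, together with the regulators of sterol synthesis. They were chosen by symbol, and 35 symbols were given for 33 genes because 2 genes have an older name each. Sc4mol, now called Msmo1, and Sc5d are the names used in the files. All 33 had an entry among the 22985 gene symbols kept, and 31 of them passed the filter on low values and were tested, among 11532 genes. Hmgcs1 was listed at 0 in all 25 libraries, where its only entries lie on an unplaced piece of chromosome 13 of the mm9 mouse assembly, and Fads2 never exceeded 0.513 FPKM. FPKM is the number of sequenced fragments per kilobase of transcript, scaled to the number of mapped fragments.

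RNA was sequenced from regulatory T cells (Treg), which restrain immune responses and are defined by the transcription factor Foxp3, and from conventional T cells (Tconv) of spleen and lymph node of C57BL/6 mice. The study bears on p65 (gene Rela) and c-Rel (gene Rel), the NF-κB subunits that act downstream of the T cell receptor. Stimulated cells received CD3 and CD28 antibodies at 2 µg/ml with IL-2 for 3 h. The groups were Treg lacking both subunits (DKO; 2 stimulated and 2 resting libraries), Treg lacking c-Rel (c-RelKO; 1 stimulated, 2 resting), Treg lacking p65 (p65KO; 1 stimulated, 3 resting), wild-type Treg (2 stimulated, 4 resting) and wild-type Tconv (2 stimulated, 2 resting). A separate set used TAT-Cre, a cell-permeable recombinase, and its libraries were all of stimulated cells, with 1 library each for Treg labelled as deleted for Foxp3, Treg labelled as deleted for NF-κB, control Treg without deletion and control Tconv without deletion. The labels name no Cre driver for the other knockouts and give neither age nor sex nor the number of mice pooled. No label says that libraries of a group came from separate mice, so every p-value below rests on a spread between libraries that may be technical. Except where only the groups compared were fitted, that spread is estimated for each gene over all groups in the fit. Libraries outside a comparison therefore also set its SE.

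As background, cholesterol synthesis starts from acetyl-CoA, passes through mevalonate and the isoprenoids to squalene, and then closes and trims the sterol ring in a series of steps. The membrane-bound factor SREBP2 (gene Srebf2) switches most of these enzymes on when sterols are low, and SREBP1 (gene Srebf1) acts mainly on fatty acid genes. Both are carried to their activating proteases by Scap and held back by Insig proteins. T cells that leave rest and grow are known to draw on this pathway for membranes.

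The label checks touch several values below. Rel was 1.76 to 2.23 FPKM in the resting and stimulated c-RelKO and DKO libraries, against 27.5, 199.5, 271 and 252 FPKM in resting WT Treg. Rela was 58.0, 69.3 and 79.8 FPKM in p65KO Treg and 76.1 and 56.3 FPKM in DKO Treg, against 64.9, 99.1, 129.7 and 124 FPKM in WT Treg, and these sets overlapped. The files do not show which exons were deleted. Foxp3 was 8.01 and 21.2 FPKM in DKO Treg, against 129, 210, 344 and 351 FPKM in WT Treg, so the defining gene of the labelled cell type was low in DKO Treg. Summed levels of 8 B cell markers were 15.4 to 256 FPKM in c-RelKO Treg and 6.02 to 70.8 FPKM in WT Treg, and the 7 erythroid markers reached 20700 FPKM in c-RelKO Treg replicate 2. The 9 myeloid markers summed to 74.1 to 301 FPKM in c-RelKO Treg and 8.30 to 111 FPKM in WT Treg. In the TAT-Cre set, B cell markers were 33.05 FPKM in control Treg and 1.85 FPKM in control Tconv. Erythroid markers there were 1626 FPKM in the NFkB del library and 65.04 FPKM in control Treg. The part of such cells in the values below was not tested. The library labelled p65KO Treg stim had lower Egr1, an early response gene, than resting p65KO Treg replicate 3 (29.5 and 178 FPKM), against its label, so no direction is drawn from that pair and values of p65KO Treg replicate 3 carry the same doubt. The numbers in the sample descriptions fall into runs: run 1 and run 2 hold 1 WT Treg and 1 p65KO Treg library each, and runs 3 and 4 hold all the other libraries outside the TAT-Cre set. No label names these runs as batches. Unless a replicate block is named, the calls below come from fits without a term for the run. Same-run libraries often deviated together, and the counts with a block for the run are given in the closing section. WT Treg replicate 1 and p65KO Treg replicate 1, the 2 libraries of run 1, stood apart from the other resting Treg of their genotypes in several of the genes below, and each comparison is therefore also given within runs 3 and 4, a setting chosen after the data were seen. In bulk RNA, fewer cells of a type and less RNA per cell cannot be told apart.

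Over the 25 libraries the highest median level per transcript length was that of Dgat1, which joins the last fatty acid to a triglyceride, at 99.8 FPKM. It was followed by Acly, which makes cytosolic acetyl-CoA from citrate, at 80.8 FPKM, by Srebf2 at 78.4 FPKM, and by Insig1 at 49.9 FPKM. Among enzymes of the sterol branch the highest median was that of the lanosterol demethylase Cyp51, at 41.2 FPKM. The lowest medians among the tested genes were 0.284 FPKM for the desaturase Scd1, 1.68 FPKM for the sterol reductase Tm7sf2 and 3.51 FPKM for the acetyl-CoA carboxylase Acaca. Scd1 reached 36.4 FPKM in c-RelKO Treg replicate 2, the library with the highest erythroid markers, and stayed under 5 FPKM in every other library.

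**Figure D1:**
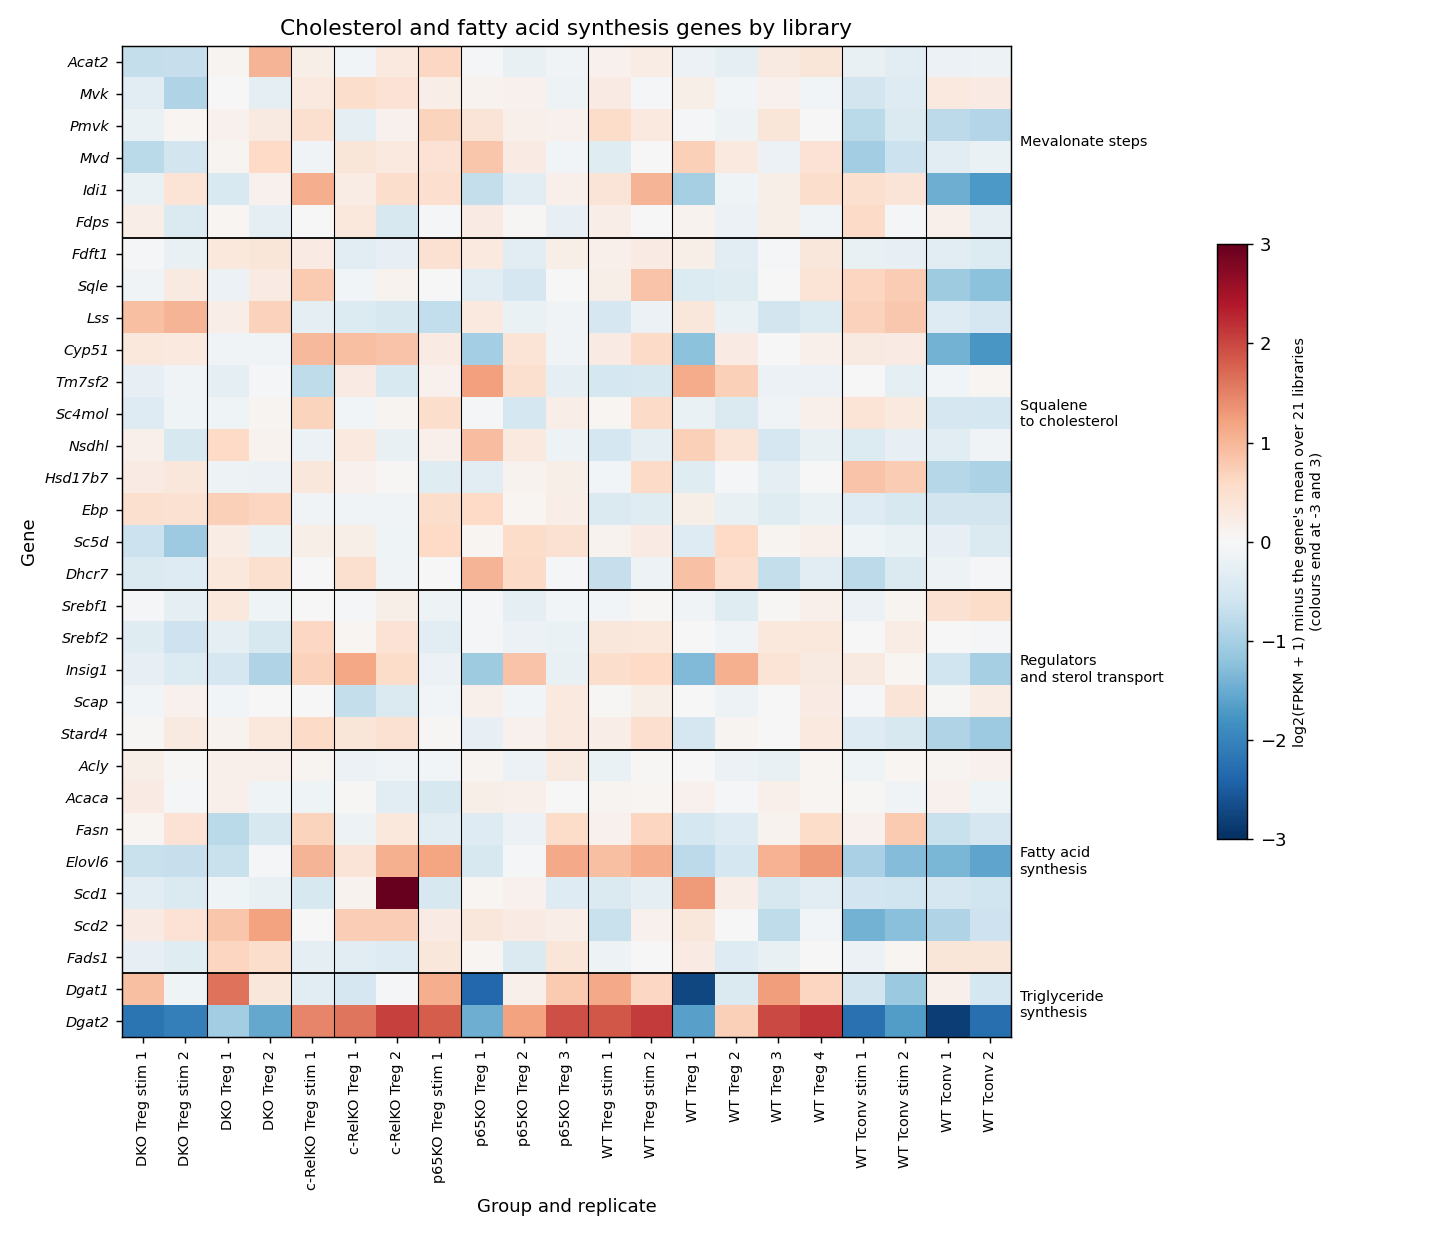
Levels of the tested lipid synthesis genes (rows, ordered by step) in the 21 libraries outside the TAT-Cre set (columns, ordered by group), as log2(FPKM + 1) minus the gene's mean over those libraries; colours end at 3 above and below. Resting WT Tconv, in the last columns, lie below the mean for Idi1, Sqle, Cyp51 and Hsd17b7, and Dgat2 is low in DKO Treg and in Tconv.

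The first comparison asks what stimulation did to these genes in Tconv. From squalene to cholesterol, 5 of the 11 genes were called higher, none lower and 6 were not called, among them Tm7sf2 (-0.13), Nsdhl (-0.11) and Dhcr7 (-0.50) with values below 0. Of the 6 tested genes of the mevalonate steps, 1 was called higher and 1 lower. In all, 6 of the 31 tested genes rose and 1 fell, that is 7 called, where 11.9% of all 11532 genes were called, 6.69% higher and 5.16% lower. The call rule was an adjusted p under 0.05 in limma with Benjamini-Hochberg adjustment over all genes tested. Differences are on the log2(FPKM + 1) scale, which understates changes of low genes. The median difference was 0.15 over the 31 genes and -0.09 over all genes tested.

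Hsd17b7, a reductase in the trimming of the sterol ring, had 9.03 and 8.38 FPKM in stimulated Tconv, against 2.08 and 1.87 FPKM in resting Tconv. The replicates of each group lay close together and the groups did not overlap, and the log2 difference was 1.71 ± 0.23 (SE; limma adjusted p = 0.000438). Sqle, the squalene epoxidase that catalyses a rate-limiting step, had 26.2 and 28.6 FPKM in stimulated Tconv, against 7.22 and 6.44 FPKM in resting Tconv, again without overlap. Its log2 difference was 1.86 ± 0.29 (limma adjusted p = 0.00102).

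Idi1, which interconverts the isoprenoid building blocks, had 43.7 and 41.1 FPKM in stimulated Tconv, against 10.7 and 8.70 FPKM in resting Tconv. Cyp51 had 41.8 and 41.0 FPKM in stimulated Tconv, against 12.4 and 9.62 FPKM in resting Tconv. The ratios of the group means were 4.37 and 3.76, and every stimulated library lay above every resting one. Their log2 differences were 2.03 ± 0.42 (limma adjusted p = 0.00652) for Idi1 and 1.83 ± 0.44 (0.0157) for Cyp51. Lss, the cyclase that closes the sterol ring, had 7.76 and 8.54 FPKM in stimulated Tconv, against 3.17 and 2.84 FPKM in resting Tconv (difference 1.19 ± 0.27, limma adjusted p = 0.0121). Sc4mol, a methylsterol oxidase, had 29.997 and 27.8 FPKM in stimulated Tconv, against 15.6 and 15.3 FPKM in resting Tconv (0.86 ± 0.24, 0.0323). The 1 gene that fell was Mvk, the mevalonate kinase, with 4.67 and 5.36 FPKM in stimulated Tconv, against 9.21 and 8.86 FPKM in resting Tconv (-0.74 ± 0.20, 0.0305).

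The regulators and the fatty acid genes gave no call in Tconv. Insig1, itself an SREBP target that retains SREBP in the endoplasmic reticulum, had 62.3 and 53.8 FPKM in stimulated Tconv, against 33.6 and 25.6 FPKM in resting Tconv, without overlap (0.96 ± 0.63, limma adjusted p = 0.381). Fasn, the fatty acid synthase, had 39.4 and 62.8 FPKM in stimulated Tconv, against 22.2 and 24.8 FPKM in resting Tconv (1.05 ± 0.37, limma adjusted p = 0.0882). Srebf1 was the other way round, with 34.2 and 41.2 FPKM in stimulated Tconv, against 54.0 and 57.5 FPKM in resting Tconv (-0.56, limma adjusted p = 0.0791). Of the remaining sterol genes, Fdft1, Nsdhl, Ebp, Sc5d, Dhcr7, Tm7sf2, Fdps and Pmvk were not called in this comparison.

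The set of Tconv calls rested on few libraries. With 1 library left out, 2 to 3 of the 31 genes were called: 3 without WT Tconv replicate 1, 2 without WT Tconv stim replicate 1, 2 without WT Tconv replicate 2 and 3 without WT Tconv stim replicate 2. Sqle and Hsd17b7 were called under all 13 alternative settings, with limma adjusted p up to 0.019 and 0.0102. Idi1 was called under 11 of them, and Mvk, Lss, Cyp51 and Sc4mol under 9 each. Within runs 3 and 4 only, where Scd1 fell below the filter and 30 genes of the set were tested, limma called 12 of the 30, 9 higher and 3 lower, where 31.9% of 11270 genes were called, 13.2% higher and 18.8% lower. The added calls there were Insig1 (limma adjusted p = 0.00796), Fasn (0.0171) and the sterol carrier Stard4 (0.0209), all higher, and Srebf1 (0.0295) and the desaturase Fads1 (0.0286), both lower. The Insig1 difference there was 0.96 ± 0.21, the same difference with a smaller SE than over all libraries.

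**Figure D2:**
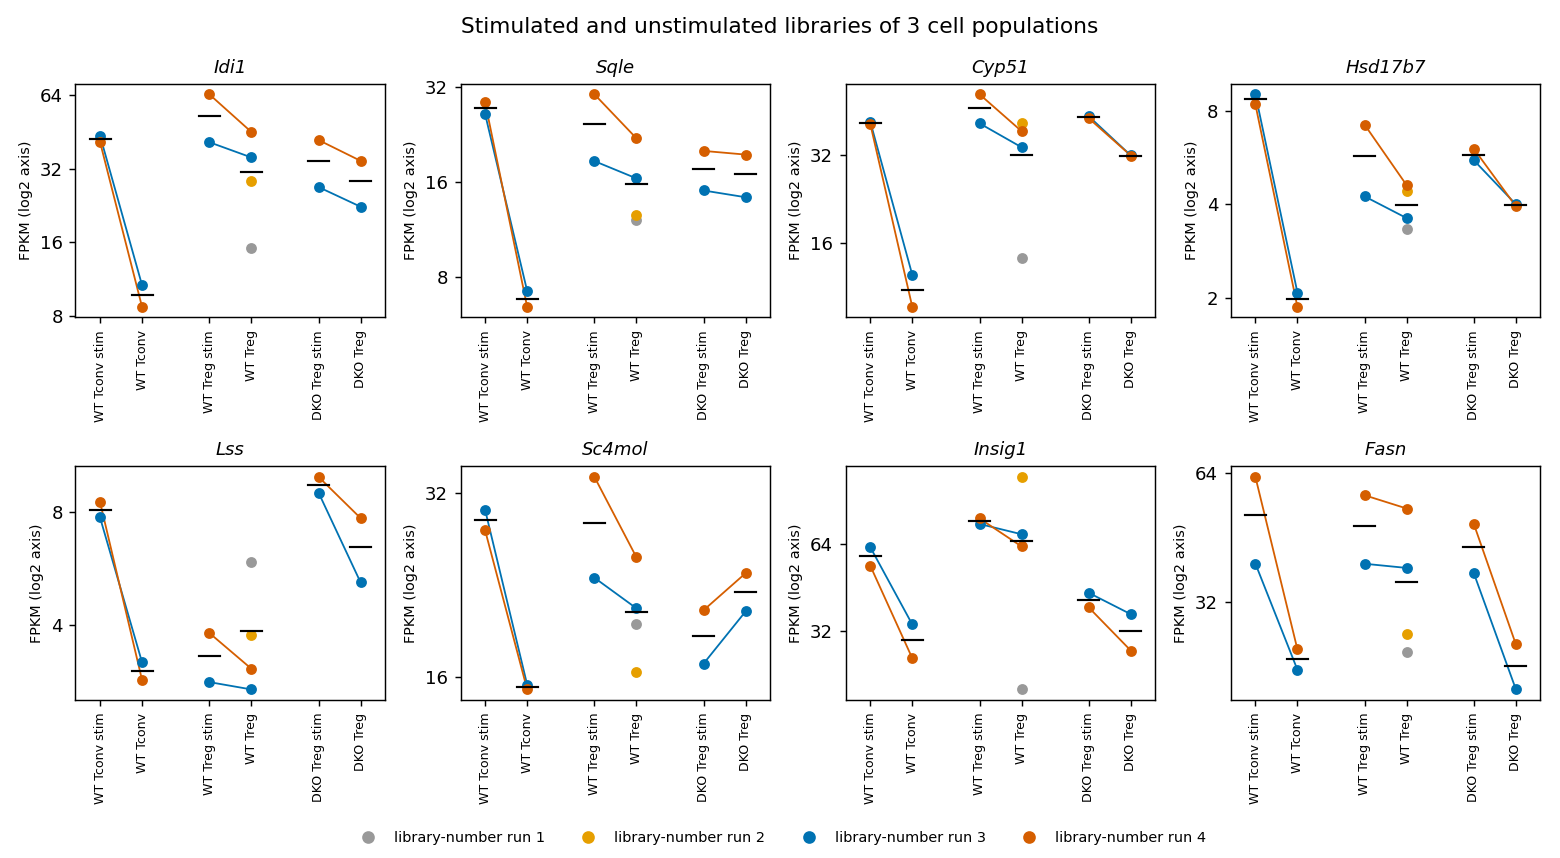
FPKM (log2 axis) of 8 of the genes in stimulated and resting DKO Treg, WT Treg and WT Tconv; each point is a library, lines join libraries of the same run and bars are group means. In Tconv the Hsd17b7 level was 9.03 and 8.38 FPKM with stimulation and 2.08 and 1.87 FPKM without, while in WT Treg the states overlap for this gene.

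The sequences in front of 5 of the 6 genes that rose in Tconv are shown because these genes were all called higher in the same comparison and because SREBP and its partner NF-Y are known to act close to the start of sterol genes. Sqle, the other gene that rose, has no entry in the promoter table used. NF-Y binds the letters CCAAT. Each line gives the 250 bases before the RefSeq transcript start (GRCm38.p6), 5′ to 3′ on the gene's strand, with CCAAT or its reverse complement ATTGG in capitals. Cyp51 lies at chr5:4104698-4104947 on the minus strand, Hsd17b7 at chr1:169969206-169969455 (minus), Idi1 at chr13:8885356-8885605 (plus), Lss at chr10:76531355-76531604 (plus) and Sc4mol at chr8:64733579-64733828 (minus).
Hsd17b7: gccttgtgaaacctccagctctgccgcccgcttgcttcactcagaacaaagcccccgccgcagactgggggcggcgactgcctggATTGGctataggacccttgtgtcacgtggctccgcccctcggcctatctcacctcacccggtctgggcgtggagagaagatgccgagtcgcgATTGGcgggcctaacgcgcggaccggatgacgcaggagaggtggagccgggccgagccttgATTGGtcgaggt
Idi1: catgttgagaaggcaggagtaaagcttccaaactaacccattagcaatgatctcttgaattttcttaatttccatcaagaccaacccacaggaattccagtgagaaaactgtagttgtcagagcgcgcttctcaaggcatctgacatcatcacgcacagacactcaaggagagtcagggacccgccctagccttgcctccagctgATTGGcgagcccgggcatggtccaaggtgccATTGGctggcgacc
Cyp51: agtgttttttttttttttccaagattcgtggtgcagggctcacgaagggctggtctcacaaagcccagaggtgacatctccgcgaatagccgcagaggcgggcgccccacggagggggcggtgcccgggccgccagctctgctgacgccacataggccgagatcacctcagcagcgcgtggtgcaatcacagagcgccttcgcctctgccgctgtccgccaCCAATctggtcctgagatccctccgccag
Lss: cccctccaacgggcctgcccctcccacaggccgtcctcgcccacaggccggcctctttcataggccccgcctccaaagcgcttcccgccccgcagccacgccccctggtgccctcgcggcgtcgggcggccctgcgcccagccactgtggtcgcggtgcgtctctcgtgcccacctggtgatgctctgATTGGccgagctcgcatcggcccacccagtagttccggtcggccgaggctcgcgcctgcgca
Sc4mol: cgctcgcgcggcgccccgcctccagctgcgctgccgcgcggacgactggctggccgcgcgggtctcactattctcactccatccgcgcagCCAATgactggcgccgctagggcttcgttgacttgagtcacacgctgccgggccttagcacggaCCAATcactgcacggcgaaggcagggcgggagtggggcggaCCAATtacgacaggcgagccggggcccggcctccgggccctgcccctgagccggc

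Hsd17b7 and Sc4mol held 3 copies each in these stretches, Idi1 held 2, and Cyp51 and Lss held 1 each. The copy nearest to the start began 12 bases before it in Hsd17b7, 14 in Idi1, 29 in Cyp51, 55 in Sc4mol and 62 in Lss, counted at the first letter of the motif on the gene's strand. Over windows of 300 bases, 250 before and 50 after the start, CCAAT on either strand was found in 19 of the 24 genes of the set that the promoter table holds (79.2%), against 41.1% of the 27025 genes in that table. The table is not limited to the genes tested here. A sterol-element-like motif, TCACNCCAC on either strand, was found in 1 of the 24 (4.17%), Hmgcs1, against 1.44% of all genes, and an NF-κB-like motif, GGGA followed by any base and TTTCC, on either strand, in 0 of the 24, against 0.466% of all genes. Matches of different motifs may overlap, and each motif was counted on its own. A match describes letters in a window and is not a site of binding.

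WT Treg were put through the same stimulation, and none of the 31 genes was called (limma, 0% of all genes called). At an unadjusted p under 0.05, 4 of the 31 and 311 of the 11532 genes passed. The smallest p-values belonged to Sqle (0.60 ± 0.25), Idi1 (0.81 ± 0.36) and Sc4mol (0.46 ± 0.21), each with a limma adjusted p of 0.698. The stimulated Treg of runs 3 and 4 can be set against the resting Treg of the same run. Sqle had 18.6 and 30.3 FPKM in stimulated WT Treg, against 16.4 and 22.01 FPKM in resting WT Treg of runs 3 and 4, and 12.1 and 12.6 FPKM in those of runs 1 and 2. Idi1 had 41.0 and 64.4 FPKM in stimulated WT Treg, against 35.6 and 45.2 FPKM in resting WT Treg of runs 3 and 4, and 15.1 and 28.5 FPKM in those of runs 1 and 2. Hsd17b7 had 4.24 and 7.21 FPKM in stimulated WT Treg, against 3.32, 4.43, 3.61 and 4.61 FPKM in resting WT Treg, and the groups overlapped.

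Within the run, no gene of the 31 reached a 2-fold difference between stimulated and resting WT Treg in either direction, where 0.199% and 0.243% of all genes did so upwards in runs 3 and 4. In Tconv the same count was 5 of 31 in run 3 and 7 of 31 in run 4, all higher, where 5.27% and 6% of all genes were higher and 4.86% and 2.91% lower by that margin. The largest within-run differences in Treg were 0.27 for Cyp51 in run 3, and 0.55 for Hsd17b7 and 0.50 for Idi1 in run 4. Early response genes were higher in these stimulated Treg: Egr1, Egr2, Nr4a1 and Nr4a3 (chosen after their values were seen) were all higher in the stimulated library in 7 of the 8 within-run pairs of the series, the exception being the p65KO pair. The size of the rise differed. In WT Treg of runs 3 and 4, Nr4a1 went from 1266 to 1584 and from 837 to 1286 FPKM. In Tconv of the same runs it went from 258 to 2191 and from 223 to 2263 FPKM. Egr1 went from 41.4 to 128 and from 28.9 to 116 FPKM in WT Treg, against 17.8 to 714 and 15.8 to 574 FPKM in Tconv. Resting WT Treg of these runs thus lay above resting Tconv in both genes, and the part of this in the Treg response was not tested. Fit to runs 3 and 4 only, limma again called none of the 30 tested.

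The test of the difference between the Treg response and the Tconv response gave 0 calls among the 31 genes in limma, where 1.03% of all genes were called, 0.0867% with a larger and 0.945% with a smaller response in Treg. At an unadjusted p under 0.05, 6 of the 31 and 1324 genes passed. Hsd17b7 came nearest, with a Treg response lower on the log2 scale (-1.30 ± 0.30, limma adjusted p = 0.0539), ahead of Lss (-1.33 ± 0.36, 0.106) and Sqle (-1.26 ± 0.38, 0.152). Within runs 3 and 4, limma called 5 of the 30, all with a smaller response in Treg, where 4.56% of all genes were called and 3.11% in that direction. They were Cyp51 (-1.49 ± 0.19, adjusted p = 0.00484), Hsd17b7 (-1.34 ± 0.27, 0.027), Sqle (-1.55 ± 0.34, 0.0353), Idi1 (-1.67 ± 0.40, 0.0452) and Lss (-1.04 ± 0.25, 0.0465). These 5 are also among the genes that were called in Tconv, and the Tconv response enters both tests. Without WT Treg replicate 1, or without WT Treg stim replicate 2, 1 of the 31 was called, against 0 with all libraries.

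**Figure D3:**
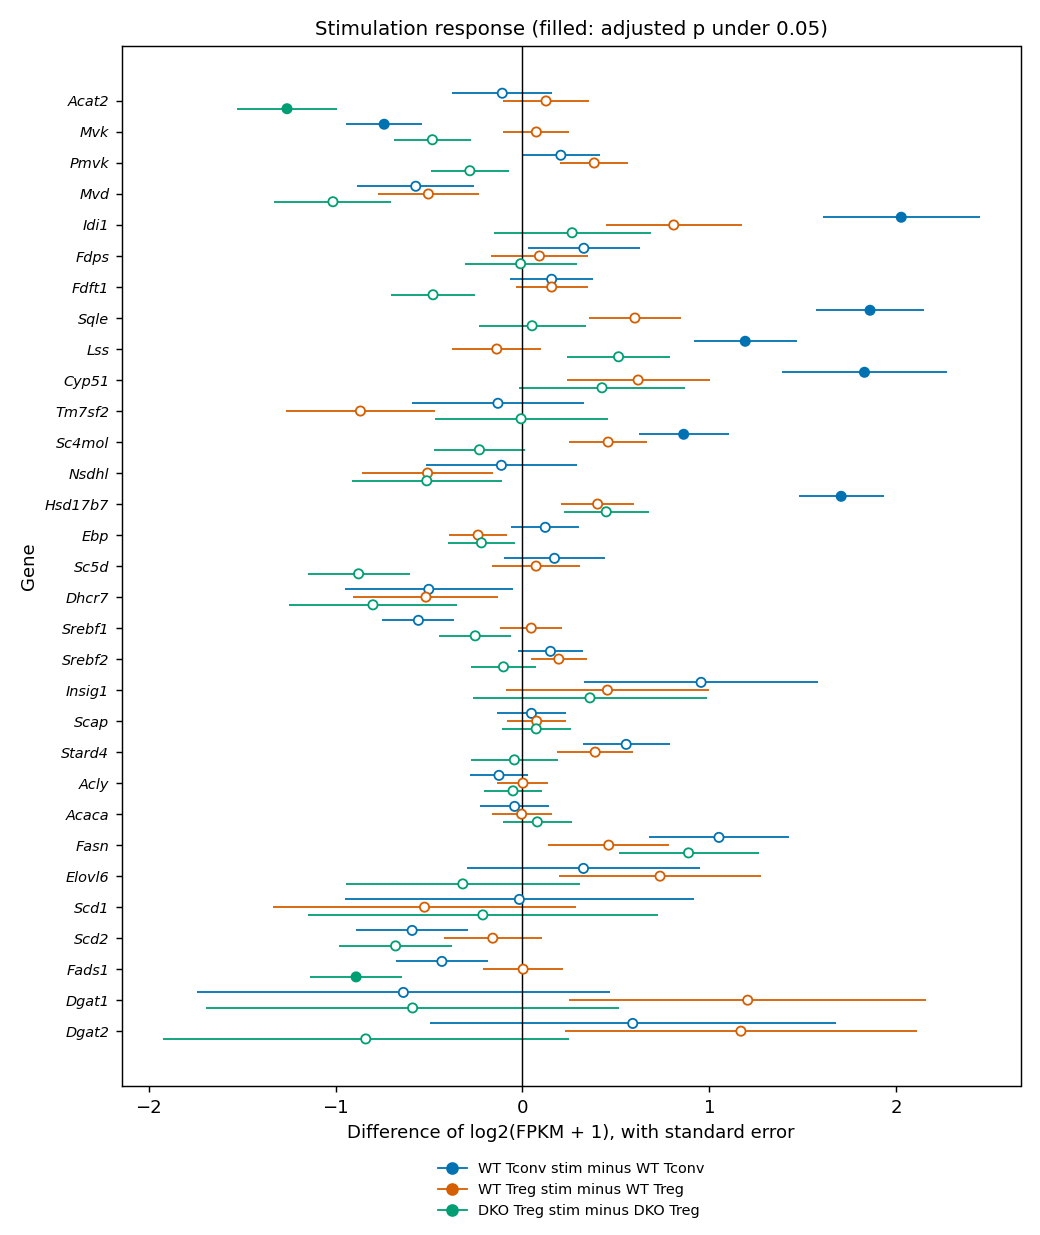
Log2(FPKM + 1) difference with its standard error for each tested gene, stimulated minus resting, in DKO Treg, WT Treg and WT Tconv; filled points have a limma adjusted p under 0.05. Filled points to the right of 0 are sterol enzymes in Tconv, with Idi1 at 2.03, and none of the WT Treg points is filled.

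Stimulation of DKO Treg lowered 2 of the 31 genes and raised none, where 9.99% of all genes were called, 3.86% higher and 6.13% lower. Acat2, the cytosolic thiolase that starts the mevalonate route, had 7.68 and 7.77 FPKM in stimulated DKO Treg, against 14.2 and 27.7 FPKM in resting DKO Treg. The resting libraries differed from each other but both lay above the stimulated ones (-1.26 ± 0.27, limma adjusted p = 0.00994). Fads1, which inserts a double bond into long fatty acids, had 4.41 and 3.95 FPKM in stimulated DKO Treg, against 8.999 and 8.201 FPKM in resting DKO Treg (-0.89 ± 0.25, limma adjusted p = 0.0362). With size factors in place of the authors' scaling only Acat2 was called. The mean log2 size factor differed by -0.21 between these groups, and the median difference over all genes tested was -0.19. The split over all genes moved with the scaling, from 445 higher and 707 lower as deposited to 615 higher and 392 lower with size factors. Leaving out 1 library gave 1 call without DKO replicate 1, 1 without DKO stim replicate 1, 0 without DKO replicate 2 and 0 without DKO stim replicate 2.

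The enzymes that rose in Tconv gave no call in DKO Treg. Sqle had 15.04 and 20.1 FPKM in stimulated DKO Treg, against 14.3 and 19.5 FPKM in resting DKO Treg. Lss had 9.05 and 9.97 FPKM in stimulated DKO Treg, against 5.19 and 7.73 FPKM in resting DKO Treg. Hsd17b7 had 5.54 and 6.03 FPKM in stimulated DKO Treg, against 3.997 and 3.94 FPKM in resting DKO Treg, a small gap without overlap. In runs 3 and 4 alone, limma called 9 of the 30, 2 higher and 7 lower, where 30.9% of all genes were called, 8.57% higher and 22.3% lower. Those higher were Cyp51 (0.43, adjusted p = 0.0399) and Fasn (0.89, 0.0355), and those lower were Acat2, Mvd, Fdft1, Sc5d, Dhcr7, Fads1 and Dgat2. The DKO response differed from the WT Treg response for 0 of the 31 genes in limma, where 0.971% of all genes were called, and 6 of the 31 and 1197 of all genes had an unadjusted p under 0.05. Acat2 had a difference of -1.39 ± 0.35 (limma adjusted p = 0.101), and Dgat2 and Dgat1 had larger ones with far larger errors, at -2.01 ± 1.44 and -1.79 ± 1.46. The 1 call in runs 3 and 4 was Fads1 (-0.92, adjusted p = 0.0255), where 4.25% of all genes were called.

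At rest, sterol enzymes including Idi1, Sqle, Cyp51 and Hsd17b7 were called higher in Treg than in Tconv, though none of these under every alternative setting. Of the 31 genes, 7 were higher and 1 lower in WT Treg (8 called in limma), where 12.6% of all genes were called, 7.03% higher and 5.53% lower. The median difference was 0.40 over the 31 genes, against 3e-04 over all genes tested. The 8 cell cycle markers summed to 281 to 426 FPKM in WT Treg and 150 to 173 FPKM in WT Tconv, and 5 of the 8 were called higher and none lower. The early response gene Nr4a1 had 62.0, 613, 1266 and 837 FPKM in WT Treg replicates 1 to 4, against 258 and 223 FPKM in WT Tconv. The part of either in these values was not tested. The 4 resting WT Treg libraries are given in the order of replicates 1 to 4 below, and this comparison shares the resting WT Tconv libraries with the Tconv stimulation test and the resting WT Treg libraries with the Treg one. Without WT Tconv replicate 1, without WT Tconv replicate 2, or with only these groups in the fit, 0 of the 31 were called, and 5 each were called without WT Treg replicate 2 or WT Treg replicate 4.

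Idi1 had 15.1, 28.5, 35.6 and 45.2 FPKM in WT Treg, against 10.7 and 8.70 FPKM in WT Tconv. Even replicate 1, the lowest Treg library, lay above both Tconv libraries (1.49 ± 0.36, limma adjusted p = 0.0157). Sqle had 12.1, 12.6, 16.4 and 22.01 FPKM in WT Treg, against 7.22 and 6.44 FPKM in WT Tconv, without overlap (1.06 ± 0.25, limma adjusted p = 0.0124). Cyp51 had 14.1, 41.5, 34.1 and 38.7 FPKM in WT Treg, against 12.4 and 9.62 FPKM in WT Tconv (1.37 ± 0.38, limma adjusted p = 0.032). Its replicate 1 lay near the Tconv level and the other 3 libraries well above it. Hsd17b7 had 3.32, 4.43, 3.61 and 4.61 FPKM in WT Treg, against 2.08 and 1.87 FPKM in WT Tconv (0.74 ± 0.20, limma adjusted p = 0.0256). Of the 15 alternative settings, Idi1 and Sqle were called under 12 each, Hsd17b7 under 10 and Cyp51 under 6.

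Pmvk, the kinase that acts after Mvk, had 12.9, 11.9, 17.3 and 13.2 FPKM in WT Treg, against 7.32 and 6.76 FPKM in WT Tconv (0.87 ± 0.18, limma adjusted p = 0.00648). Stard4, which moves cholesterol between membranes, had 13.8, 21.01, 19.7 and 24.5 FPKM in WT Treg, against 10.1 and 8.87 FPKM in WT Tconv (0.96 ± 0.20, limma adjusted p = 0.00703). Neither gene overlapped between the cell types. Srebf1 was the 1 gene lower in Treg, with 36.4, 29.999, 39.9 and 43.4 FPKM in WT Treg, against 54.0 and 57.5 FPKM in WT Tconv (-0.57 ± 0.17, limma adjusted p = 0.0374). With size factors both Srebf1 and Cyp51 missed the threshold. In that setting 7 genes were called, all higher, among them a gene not called with the deposited scaling.

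Dgat2, which finishes triglycerides like Dgat1, gave the widest gap of the set. It had 3.02, 19.5, 48.5 and 54.5 FPKM in WT Treg, against 0.769 and 1.59 FPKM in WT Tconv. No Treg library overlapped with Tconv, but replicate 1 was far below replicates 3 and 4 (3.35 ± 0.94, limma adjusted p = 0.0323). Dgat2 was called under 8 of the 15 alternative settings. Elovl6, which lengthens saturated fatty acids, had the same order of libraries, with 4.36, 5.42, 17.8 and 21.3 FPKM in WT Treg, against 2.57 and 2.09 FPKM in WT Tconv (1.72 ± 0.54, limma adjusted p = 0.0518). Over runs 3 and 4 only, the difference was 4.61 ± 0.26 (limma adjusted p = 4e-06) for Dgat2 and 2.63 ± 0.25 (7.3e-05) for Elovl6. There limma called 14 of the 30, 13 higher and 1 lower, where 33.8% of all genes were called, 13.2% higher and 20.5% lower. Added higher calls included Insig1 (1.14, adjusted p = 0.00319) and Fasn (0.91, 0.0295), and the 1 lower call was Fads1 (-0.48, 0.0168). Within the run, 8 and 9 of the 31 were at least 2-fold higher in Treg and 0 lower, where 6.16% and 7.3% of all genes were higher and 5.25% and 5.24% lower by that margin.

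The next comparison sets the cell types side by side after stimulation. Of the 31 genes, 3 were higher and 1 lower in stimulated WT Treg than in stimulated WT Tconv (limma), where 6.64% of all genes were called, 3.62% higher and 3.02% lower. Sqle had 18.6 and 30.3 FPKM in stimulated Treg, against 26.2 and 28.6 FPKM in stimulated Tconv, and the groups overlapped. Cyp51 had 41.2 and 51.9 FPKM in stimulated Treg, against 41.8 and 41.0 FPKM in stimulated Tconv, again with overlap. Lss was lower in Treg, with 2.80 and 3.80 FPKM in stimulated Treg, against 7.76 and 8.54 FPKM in stimulated Tconv (-1.10 ± 0.27, limma adjusted p = 0.0274).

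The genes higher in stimulated Treg were Pmvk, Dgat2 and Scd2. Pmvk had 20.0025 and 16.5 FPKM in stimulated Treg, against 7.13 and 9.56 FPKM in stimulated Tconv (1.05 ± 0.21, limma adjusted p = 0.00754). Dgat2 had 44.0 and 52.4 FPKM in stimulated Treg, against 1.64 and 2.93 FPKM in stimulated Tconv (3.93 ± 1.09, limma adjusted p = 0.0454). Scd2, a desaturase that makes monounsaturated fatty acids, had 19.4 and 34.4 FPKM in stimulated Treg, against 11.1 and 12.6 FPKM in stimulated Tconv (1.06 ± 0.30, limma adjusted p = 0.0499). None of the 3 genes overlapped between the cell types. Of the 13 alternative settings, Pmvk was called under 11, Scd2 under 8 and Dgat2 under 7. These calls moved with single libraries: 0 of the 31 were called without WT Tconv stim replicate 1, and 1 each without WT Treg stim replicate 1, WT Tconv stim replicate 2 or WT Treg stim replicate 2. With runs 3 and 4 alone, 8 of the 30 were called, 7 higher and 1 lower, where 25.7% of all genes were called, and Elovl6 (2.13, adjusted p = 0.000345) and Dgat1 (1.71, 0.0261) were among them.

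DKO Treg were set against WT Treg at rest. Of the 31, 3 were higher and 1 lower in DKO Treg than in WT Treg (limma), a smaller share than the 33% of all genes called, 19.4% higher and 13.6% lower. The 8 cell cycle markers summed to 1089 to 1536 FPKM in DKO Treg and 281 to 426 FPKM in WT Treg, with Foxp3 low as given above, and the part of either in these values was not tested. Ebp, an isomerase of the sterol ring, had 50.5 and 47.9 FPKM in DKO Treg, against 34.1, 25.97, 23.5 and 26.2 FPKM in WT Treg. The groups did not overlap (0.83 ± 0.16, limma adjusted p = 0.0012), and Ebp was called under all 15 alternative settings. Scd2 had 56.8 and 74.2 FPKM in DKO Treg, against 40.3, 32.1, 18.2 and 29.8 FPKM in WT Treg (1.14 ± 0.26, limma adjusted p = 0.00448).

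Fads1 had 8.999 and 8.201 FPKM in DKO Treg, against 6.65, 3.90, 4.53 and 5.35 FPKM in WT Treg (0.67 ± 0.21, limma adjusted p = 0.0274). Srebf2, which encodes the main sterol regulator, was lower, with 62.8 and 54.7 FPKM in DKO Treg, against 77.9, 72.2, 95.8 and 97.1 FPKM in WT Treg (-0.53 ± 0.15, limma adjusted p = 0.0158). Both genes stood apart without overlap. Dgat2 had 5.04 and 3.32 FPKM in DKO Treg, against 3.02, 19.5, 48.5 and 54.5 FPKM in WT Treg (-2.09 ± 0.94, limma adjusted p = 0.104), with replicate 1 of WT Treg at the DKO level. With 1 library left out, 7 of the 31 were called without WT Treg replicate 1 and 1 without DKO replicate 2, the 2 cases that moved the count by more than 1.5 times. Within runs 3 and 4 limma called 11 of the 30, 6 higher and 5 lower, where 52.5% of all genes were called. There the lower genes were Dgat2 (-3.36 ± 0.26, adjusted p = 1.5e-05), Elovl6 (-1.52), Insig1 (-1.04), Fasn (-0.97) and Srebf2 (-0.71).

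In stimulated cells, 2 of the 31 genes were higher and 5 lower in DKO Treg than in WT Treg (7 called in limma), where 32.7% of all genes were called, 16.6% higher and 16.2% lower. Lss had 9.05 and 9.97 FPKM in stimulated DKO Treg, against 2.80 and 3.80 FPKM in stimulated WT Treg (1.30 ± 0.27, limma adjusted p = 0.00279). Ebp had 42.5 and 41.7 FPKM in stimulated DKO Treg, against 22.4 and 23.5 FPKM in stimulated WT Treg (0.85 ± 0.18, limma adjusted p = 0.00288). Srebf2 had 59.6 and 49.9 FPKM in stimulated DKO Treg, against 97.6 and 97.3 FPKM in stimulated WT Treg (-0.82 ± 0.17, limma adjusted p = 0.00274). The replicates of each group lay close together for these 3 genes, which were called under all 13 alternative settings.

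The other lower genes came from several steps. Sc5d, the desaturase near the end of the sterol branch, had 20.9 and 15.02 FPKM in stimulated DKO Treg, against 36.1 and 39.8 FPKM in stimulated WT Treg (-1.05 ± 0.27, limma adjusted p = 0.00923). Mvk had 5.62 and 3.42 FPKM in stimulated DKO Treg, against 8.84 and 7.12 FPKM in stimulated WT Treg (-0.72 ± 0.20, limma adjusted p = 0.0151). Acat2 had 7.68 and 7.77 FPKM in stimulated DKO Treg, against 14.6 and 15.5 FPKM in stimulated WT Treg (-0.88 ± 0.27, limma adjusted p = 0.0226). None of these overlapped between the genotypes. Dgat2 had 1.72 and 2.00 FPKM in stimulated DKO Treg, against 44.0 and 52.4 FPKM in stimulated WT Treg (-4.10 ± 1.09, limma adjusted p = 0.0105). That placed Dgat2 in stimulated DKO Treg at the level of stimulated WT Tconv, 1.64 and 2.93 FPKM. Elovl6 had 4.77 and 4.71 FPKM in stimulated DKO Treg, against 16.05 and 18.6 FPKM in stimulated WT Treg (-1.67, limma adjusted p = 0.0547). Without DKO stim replicate 2, 3 of the 31 were called, and without WT Treg stim replicate 1, 4. Restricted to runs 3 and 4, 11 of the 30 were called, 2 higher and 9 lower, where 54.2% of all genes were called, and Elovl6 was among them (adjusted p = 0.000442).

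**Figure D4:**
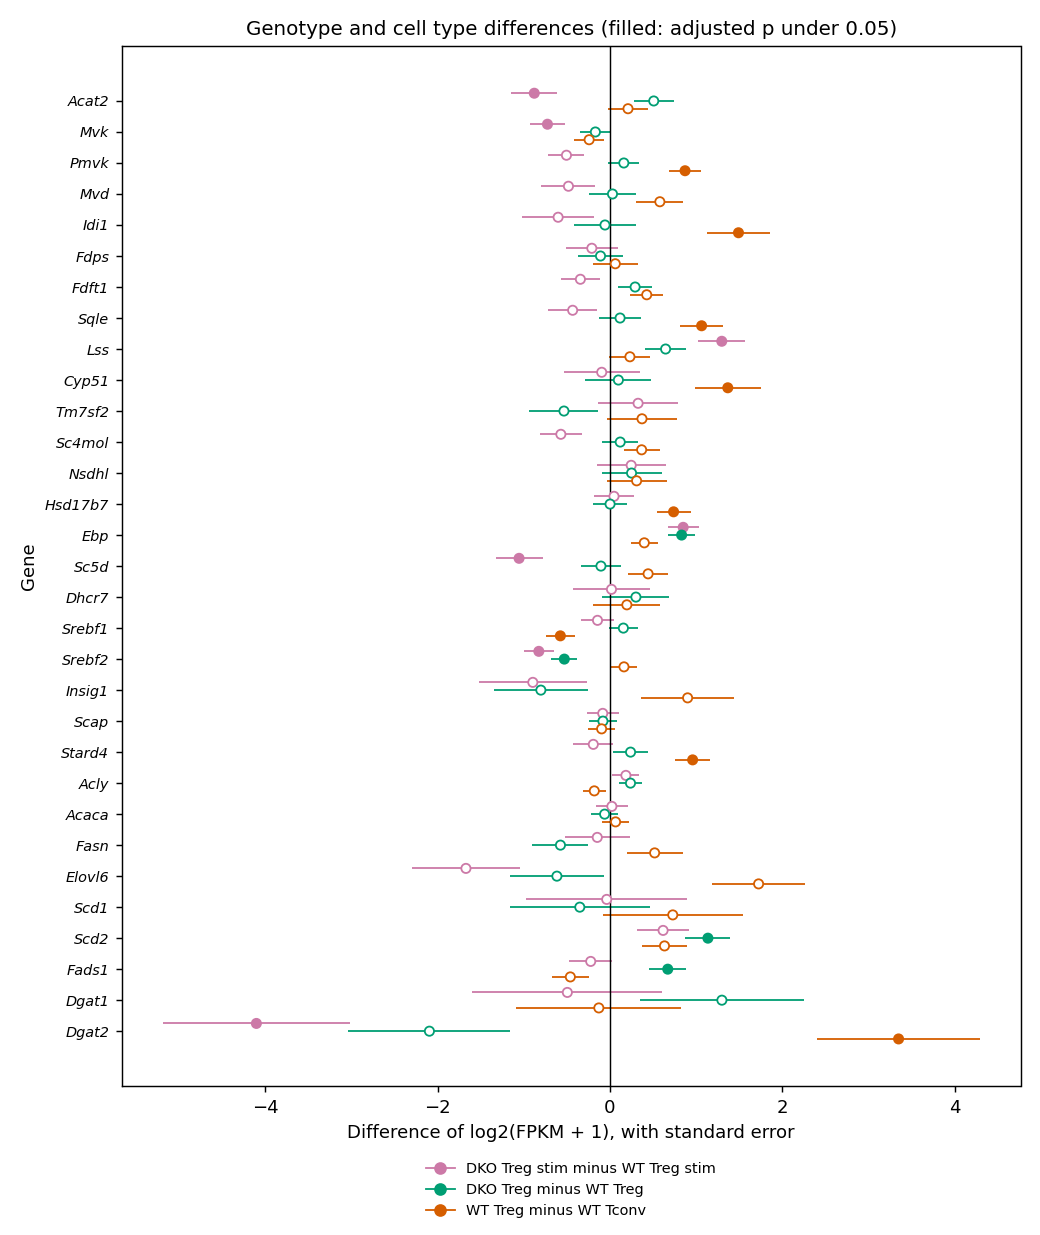
Log2(FPKM + 1) difference with its standard error for each tested gene in stimulated DKO minus stimulated WT Treg, resting DKO minus resting WT Treg, and resting WT Treg minus resting WT Tconv; filled points have a limma adjusted p under 0.05. Ebp is filled at 0.85 and 0.83 in the DKO comparisons, and Dgat2 lies at -4.10 and -2.09 there against 3.35 in Treg minus Tconv.

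**Figure D5:**
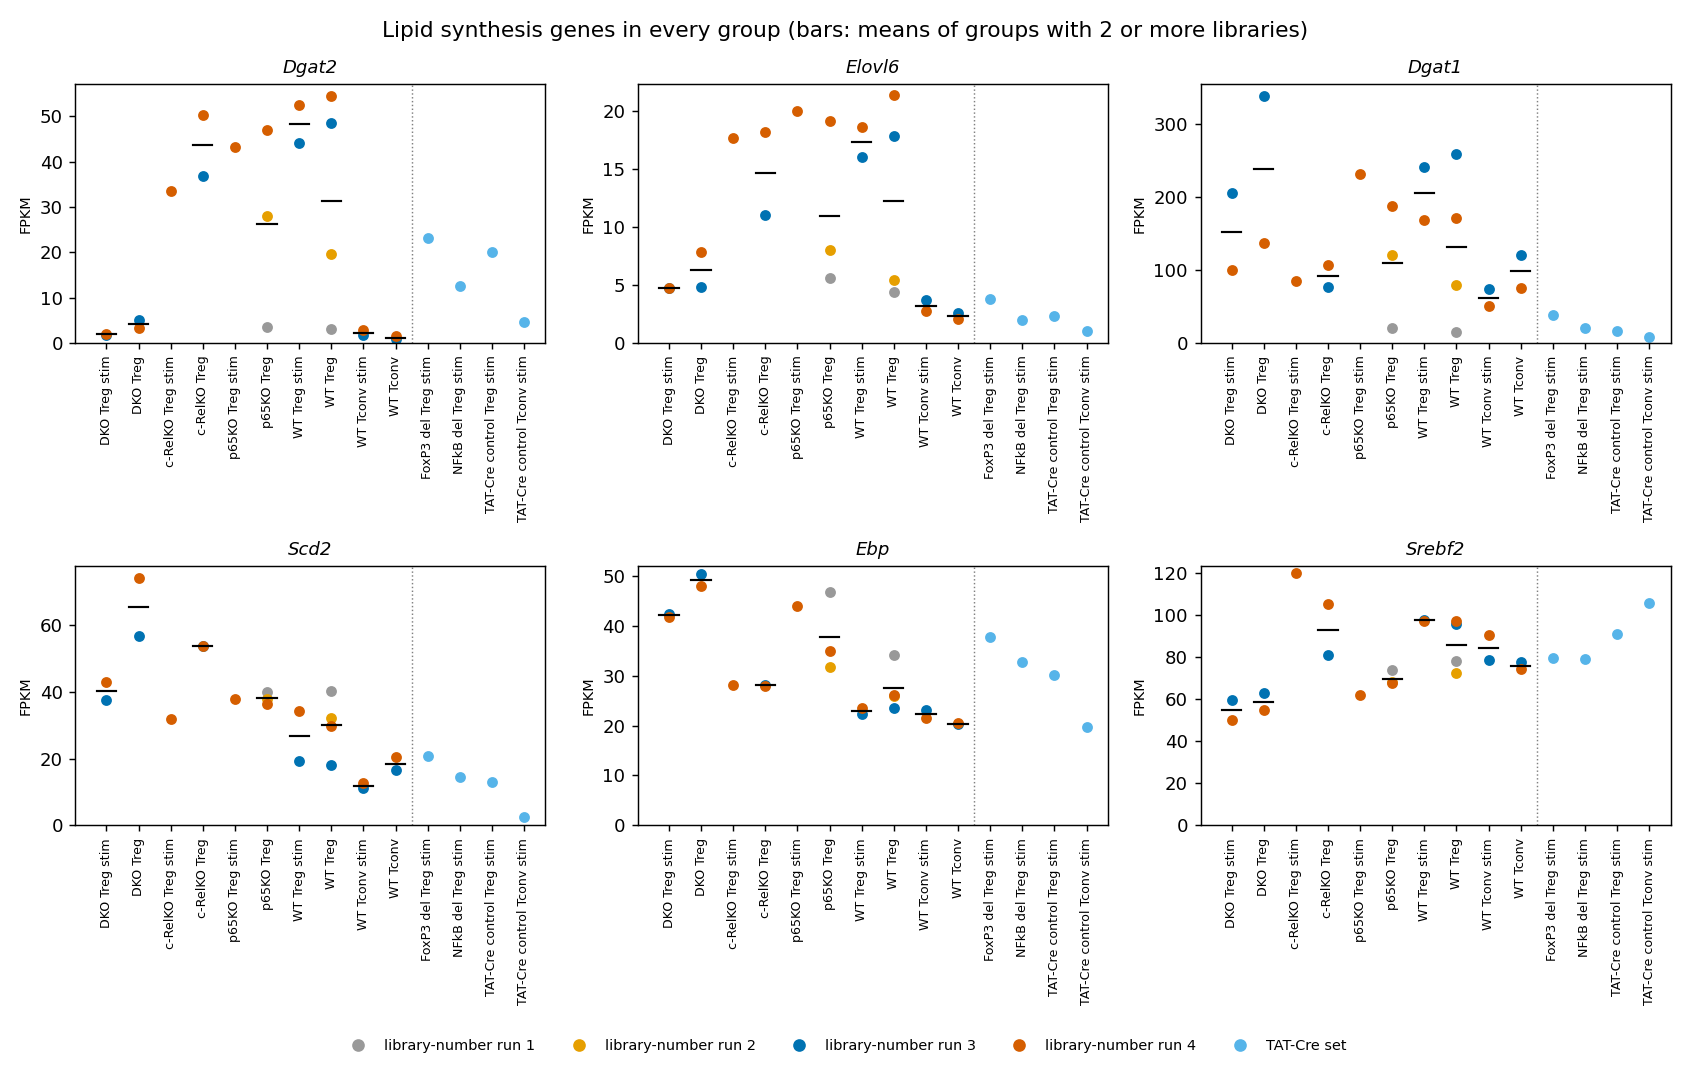
FPKM of Dgat2, Elovl6, Dgat1, Scd2, Ebp and Srebf2 in every library of the 14 groups, 1 point per library. Dgat2 lies between 1.72 and 5.04 FPKM in the 4 DKO libraries, and WT Treg replicate 1 (3.02 FPKM) stands far below the other WT Treg.

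Dgat1 varied widely between libraries of the same group. It had 205 and 99.8 FPKM in stimulated DKO Treg, 339 and 137 FPKM in resting DKO Treg, 242 and 169 FPKM in stimulated WT Treg, and 15.6, 80.1, 259 and 171 FPKM in resting WT Treg. In Tconv it had 74.2 and 50.01 FPKM with stimulation and 121 and 75.1 FPKM at rest. The run 3 library was above the run 4 library in each of these groups, but not in c-RelKO Treg (76.7 FPKM in run 3 and 106 FPKM in run 4), and without a term for the run no comparison over all libraries called the gene. With a replicate block for the run, limma called Dgat1 higher in WT Treg than in WT Tconv at rest (1.07, adjusted p = 0.00922) and after stimulation (1.71, 0.00108), and lower in c-RelKO than in WT Treg (-1.15, 0.00733).

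In resting c-RelKO Treg, 1 of the 31 genes was higher and 1 lower than in WT Treg (limma), where 10.6% of all genes were called, 1.62% higher and 8.98% lower. Scd2 had 53.8 and 53.7 FPKM in c-RelKO Treg, against 40.3, 32.1, 18.2 and 29.8 FPKM in WT Treg, without overlap (0.87 ± 0.26, limma adjusted p = 0.0479). Scap, the escort of SREBP, had 17.9 and 22.2 FPKM in c-RelKO Treg, against 30.5, 27.2, 30.2 and 36.2 FPKM in WT Treg, also without overlap (-0.61 ± 0.16, limma adjusted p = 0.0261). Of the 15 alternative settings, Scd2 was called under 5 and Scap under 9. The mean log2 size factor differed by -0.22 between these groups, and the median difference over all genes tested was -0.13. With size factors Scap was not called, Mvk was called higher (adjusted p = 0.0354), and the split over all genes moved from 187 higher and 1036 lower to 413 higher and 682 lower. Cyp51 had 65.1 and 63.5 FPKM in c-RelKO Treg, against 14.1, 41.5, 34.1 and 38.7 FPKM in WT Treg (1.09 ± 0.38, limma adjusted p = 0.0882). Without c-RelKO replicate 2, the library with the high erythroid markers, or without WT Treg replicate 4, 0 of the 31 were called, and 1 was called without c-RelKO replicate 1, WT Treg replicate 2 or WT Treg replicate 3. Within runs 3 and 4, 4 of the 30 were called, where 24.9% of all genes were called: Cyp51 (0.81, adjusted p = 0.00353) and Scd2 (1.17, 0.0144) higher, and Scap (-0.70, 0.0148) and the squalene synthase Fdft1 (-0.43, 0.0384) lower.

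In resting p65KO Treg none of the 31 genes was called against WT Treg (limma), where 0.0434% of all genes were, 0.0347% higher and 0.00867% lower, and 1 of the 31 and 1130 of all genes had an unadjusted p under 0.05. That gene was Ebp, with 46.8, 31.8 and 34.9 FPKM in p65KO Treg, against 34.1, 25.97, 23.5 and 26.2 FPKM in WT Treg (0.44 ± 0.14, limma adjusted p = 0.266). It was higher in the p65KO library in each of the 3 runs that hold both genotypes, by 0.44, 0.28 and 0.40 on the log2 scale in runs 1, 2 and 4. The median within-run differences over all genes tested were 0.01, 0.04 and 0.13 in that order. The run 4 value uses p65KO Treg replicate 3, whose label is in doubt, and without that library the difference was 0.49 (limma adjusted p = 0.303). The 3 same-run pairs deviated together, and with a replicate block for the run limma called Ebp, as 1 of the 31 (0.41, adjusted p = 0.0118), while 1017 of all genes were called, 816 higher and 201 lower. With a block for the replicate number of the titles Ebp was not called (adjusted p = 0.189). Within runs 3 and 4, which hold 1 p65KO library, none of the 30 was called, where 1.14% of all genes were, and Ebp had an adjusted p of 0.0839. Srebf2 had 73.7, 67.9 and 67.5 FPKM in p65KO Treg, against 77.9, 72.2, 95.8 and 97.1 FPKM in WT Treg (-0.28 ± 0.13, limma adjusted p = 0.513). Dgat2 had 3.52, 28.03 and 46.9 FPKM in p65KO Treg, in the order of runs 1, 2 and 4, against 3.02, 19.5 and 54.5 FPKM in the WT Treg of the same runs, so it followed the run in both genotypes. These comparisons with WT Treg share the same control libraries.

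The stimulated single knockouts have 1 library each, so their differences have no replicate check and no test, and are given within run 4 with a 2-fold limit. Between stimulated c-RelKO and stimulated WT Treg, none of the 31 genes reached that limit in either direction, where 0.824% of all genes were higher and 2.45% lower by it. Between stimulated and resting c-RelKO Treg, 1 gene did, Scd1 (-5.01), which was high in resting c-RelKO replicate 2 alone, where 0.763% of all genes were higher and 3.83% lower. The library labelled p65KO Treg stim likewise differed by less than 2-fold from stimulated WT Treg for all 31 genes, where 4.86% of all genes were higher and 1.9% lower. Set against resting p65KO Treg replicate 3, it also differed by less than 2-fold for all 31, where 0.702% of all genes were higher and 2.05% lower. Dgat2 had 36.9 and 50.3 FPKM in resting c-RelKO Treg and 33.4 FPKM in stimulated c-RelKO Treg, so the low level seen in DKO Treg was not seen in the c-RelKO libraries.

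In the TAT-Cre set each group has 1 library as well. Stimulated control Tconv and control Treg differed by 2-fold or more for 4 of the 31 genes, all lower in Tconv, where 1.54% of all genes were higher and 11% lower by that margin. They were Scd2 with 2.43 FPKM in Tconv and 13.01 FPKM in Treg, Dgat2 with 4.70 and 20.1 FPKM in that order, Scd1, and the last sterol reductase Dhcr7 with 3.44 FPKM in Tconv and 9.14 FPKM in Treg. From squalene to cholesterol, 5 of the 11 genes were higher in Tconv and 6 lower, none but Dhcr7 by 2-fold. Those higher included Sqle at 55.96 FPKM in Tconv and 28.97 FPKM in Treg, Lss at 13.4 and 6.73 FPKM in that order, and Hsd17b7 at 14.9 FPKM in Tconv and 8.24 FPKM in Treg. Those lower included Ebp (-0.59) and Nsdhl (-0.37), and Mvk of the mevalonate steps was lower as well (-0.998 on the log2 scale, just under 2-fold). The library labelled FoxP3 del had 266 FPKM of Foxp3, against 86.7 FPKM in control Treg. Gene-level FPKM do not show whether exons were deleted. The label could therefore not be checked, and no direction is drawn from this library. In that library Dgat1 had 37.8 FPKM, against 15.9 FPKM in control Treg, the 1 gene of the 31 past 2-fold (2.79% of all genes higher, 0.251% lower). In the library labelled NFkB del, with Rel at 38.7 FPKM and Rela at 123.67 FPKM, against 171 and 124.59 FPKM in control Treg in that order, none of the 31 was past 2-fold (1.57% of all genes higher, 0.442% lower). The farthest was Idi1, with 37.8 FPKM in the NFkB del library, against 71.3 FPKM in control Treg.

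Some of these genes share their locus with another annotated gene: Fdft1 with Ctsb, Lss with 4930483K19Rik, Srebf1 with Rai1, Srebf2 with Mir33, Scd2 with Mir5114 and Tm7sf2 with 1110014N23Rik. No source used here says whether the counting used strand, so reads of overlapping partners cannot be told apart for these genes.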

How the data were processed

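The tools named in the submitters' processing notes are bcl2fastq, TopHat and Cufflinks, with mouse build mm9. No source used here gives their versions, the annotation or the strand setting. Qiagen RNeasy kits and the Illumina TruSeq RNA kit were used, per the labels' protocols. The deposited files hold gene FPKM made by the authors with Cufflinks, for 23699 entries in each of 25 libraries. FPKM are not counts, so no count test was run. Entries of a symbol were summed (181 symbols had several), 250 symbols were left out because Cufflinks' status was not OK in at least 1 library, and 22985 were kept. The confidence bounds in the files imply 15.4 to 52.8 M fragments per library, and this number limits the precision of low genes.

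Values were tested with limma 3.58.1 in R 4.3.3, with a mean trend, on log2(FPKM + 1), in the 21 libraries outside the TAT-Cre set, for the 11532 genes that reached 1 FPKM in 2 or more of them. One mean per group left 11 residual degrees of freedom, and calls are Benjamini-Hochberg adjusted p under 0.05. The fit to runs 3 and 4 used 17 libraries, 11270 genes and 7 residual degrees of freedom. Groups with 1 library are described without a test, with a 2-fold limit. Alternatives were a pseudocount of 0.1, no filter, size factors, replicate blocks, leaving out libraries and fitting only the groups compared. The scripts were tested on simulated data. Every gene of the set could be named; the genes and the other lists were chosen with earlier results of these data known. The p65KO and WT Treg libraries of the same run deviated together from their group means (correlations 0.625 to 0.821 over 3 pairs), and a block for the run is given beside that comparison. Same-run libraries of most other comparisons deviated together as well, and the counts of those comparisons with that block are given further below. The runs come from numbers in the sample descriptions. No 2 libraries held identical values, and within-group correlations of libraries were 0.8927 to 0.9782. Promoter sequences and motif shares come from RefSeq (GRCm38.p6), whose table holds 24 of the 33 genes. Some genes of the other lists are not reported here.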

Additional observations from a re-analysis of the deposited data

How the results depend on the processing

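The called genes of the set kept their direction under every alternative run: over all genes called, comparisons and alternatives, 348 values stayed past the threshold, 122 did not and 0 reversed. Counts of the 31 genes called moved more; each is listed in the order stimulated minus resting Tconv, DKO stimulation, Treg minus Tconv, stimulated Treg minus stimulated Tconv, c-RelKO, DKO and stimulated DKO minus WT Treg, Treg response and DKO response, naming only those that moved by over 1.5 times. Runs 3 and 4 only, with 30 genes of the set tested, gave 12, 9, 14, 8, 4, 11 and 11 calls, and 5 and 1 for the responses. Fitting only the groups compared gave 12 (Tconv stimulation), 1 (DKO stimulation), 0 (Treg minus Tconv), 7 (stimulated Treg minus Tconv), 0 (c-RelKO) and 1 (DKO). Without the filter there was 1 call for DKO stimulation, 2 for stimulated Treg minus Tconv and 1 for c-RelKO. Size factors gave 1 for DKO stimulation and 1 for the Treg response (Lss, limma adjusted p = 0.0411). Without libraries 1 and 2 and c-RelKO replicate 2 together there were 4 (DKO stimulation), 0 (c-RelKO), 7 (DKO) and 3 (Treg response), and without p65KO replicate 3 and p65KO stim 1 for c-RelKO. Leaving out 1 library gave ranges of 2 to 3, 0 to 1, 0 to 10, 0 to 1, 0 to 2, 1 to 7 and 3 to 5 in that order, 0 to 1 for each response, and 0 to 0 for stimulated minus resting WT Treg and for p65KO. Over all genes the counts ran from 398 to 607, 193 to 803, 355 to 2314 and 273 to 307 in that order. The next were 438 to 1255, 2091 to 4635 and 1903 to 2765. They were 7 to 180 and 27 to 128 for the responses, and 0 to 21 for p65KO. Shares over all genes are not reported here for the fits of only the groups compared, without the filter, or without several libraries together. The cause of these changes was not tested; leaving out libraries also leaves fewer in the fit. Low FPKM limit Scd1, Tm7sf2, Acaca and Lss most.

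With a replicate block by library-number run, limma called 14, 12, 16, 11, 9, 11 and 16 of the 31 in the same order. The higher and lower genes were 9 and 5, 3 and 9, 15 and 1, and 9 and 2. For c-RelKO, DKO and stimulated DKO they were 6 and 3, 6 and 5, and 3 and 13. The responses gave 7 and 5 calls, and p65KO gave 1 (Ebp, limma adjusted p = 0.0118). For p65KO this block raised the calls over all genes from 5 to 1017. Shares over all genes are not reported here for the other comparisons, so these counts are not read as results about the set. Under this block Dgat1 reversed to 1.07 in WT Treg minus WT Tconv (adjusted p = 0.00922) and to -1.15 in c-RelKO minus WT Treg (adjusted p = 0.00733). With a block by the replicate number of the titles the counts that moved were 10 for stimulated minus resting WT Treg, 4 for DKO stimulation, 13 for Treg minus Tconv, 8 for c-RelKO, and 5 and 4 for the responses. Shares over all genes are not reported here for these counts. For WT Treg this block joins stimulated libraries of runs 3 and 4 to resting libraries of runs 1 and 2. Their deviations correlated at 0.023 and -0.264, so the 10 calls are not read as a paired result. Libraries of the same run deviated together with a correlation over 0.1 in 18 of 19 pairs (lowest 0.036, median 0.549). Those of the same title number did so in 11 of 19 (lowest -0.329). Where each group compared holds 2 libraries, both pairs give the same correlation, so the pairs are not all independent. By run, the correlation was 0.633 for Tconv stimulation, 0.643 for DKO stimulation and 0.625 to 0.821 for p65KO and WT Treg. Calls made without a term for the run leave this pairing out, and the counts with the run block allow for it. The block by title number called 0 of the 31 for p65KO (Ebp adjusted p = 0.189).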

Other observations

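Genes around the set were read from lists of related pathways. In stimulated against resting Tconv, of 9 tested genes of sterol efflux and the LXR receptors, 4 were lower in limma and none higher, where 11.9% of all genes were called, 6.69% higher and 5.16% lower. They were Abcg1, which exports sterols and averaged 20.6 FPKM with stimulation and 59.7 FPKM at rest (-1.49 ± 0.37 on the log2 scale), Mylip (-1.17), Npc1 (-0.77) and Npc2 (-0.80). At rest, 5 of the 9 efflux genes were lower in WT Treg than in WT Tconv, where 12.6% of all genes were called.

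In DKO Treg, 4 of 9 fatty acid oxidation genes were higher than in WT Treg and none lower, where 33% of all genes were called, 19.4% higher and 13.6% lower. Acadl, a dehydrogenase of long-chain fatty acid oxidation, averaged 82.04 FPKM in DKO Treg and 26.02 FPKM in WT Treg (1.68 ± 0.22, limma), and the others were Cpt1a (1.22), Cpt2 (1.12) and Hadha (0.59). In stimulated DKO Treg against stimulated WT Treg, 2 of the 9 were higher (Acadl 0.91, Acadvl 0.46) and 1 was lower (Acadm -0.55), where 32.7% of all genes were called, 16.6% higher and 16.2% lower. Stimulated DKO Treg had lower Elovl5 (-1.60) and Acsl3 (-1.85), which elongate and activate fatty acids, than stimulated WT Treg, and higher Acsl5 (1.29) and Hsd17b12 (1.09).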
